A study of Homo sapiens with 3 samples.

Results

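Glypicans and syndecans are the main cell-surface core proteins that carry heparan sulfate, a long sulfated sugar chain. RNA from their genes was described here in a PAR-CLIP library of CTCF, the zinc-finger protein that organises chromatin loops, made from U2OS, a human osteosarcoma cell line. The 10 members, the 6 glypican genes GPC1 to GPC6 and the 4 syndecan genes SDC1 to SDC4, were taken by name from a table of 17201 listed genes, and all 10 had a row. They were chosen by family, in view of their counts and counts per kb in this same table, which are therefore given as a description. In PAR-CLIP, cells take up 4-thiouridine (here 400 µM for 16 to 24 h). Light of 365 nm (here 400 mJ per cm²) binds the labelled RNA to protein in contact with it. The RNA bound to the precipitated protein is then sequenced. The labels name 2 biological replicates, precipitated from nuclear lysates with 2 lots of 1 anti-CTCF antibody, and a sample that is their merge. Only the merged counts were analysed, so no value below has a replicate error, and the values were set against no control precipitation and no RNA level. They describe what was recovered with CTCF and compare no conditions. No p-value was computed.

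Glypicans sit on the outer leaflet of the membrane through a lipid anchor, and most of their heparan sulfate hangs close to the membrane. They bind Wnt, Hedgehog, BMP and FGF ligands and change how these reach their receptors, and several are known from skeletal growth disorders. Syndecans cross the membrane, carry their chains near the outer tip, and end in a short cytoplasmic tail that binds PDZ proteins and links to actin.

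The table held whole-number counts per gene interval, introns included, that summed to 1322047, with a floor of 6 and a median of 31. The members' counts summed to 3380, which was 0.256% of that sum. Lengths and counts per kb below refer to the listed interval, which need not span the whole gene. MED13L, for example, was listed with 2.63 kb and NSD1 with 2.40 kb. As a check of the cell type, 7 of 10 mesenchymal or osteosarcoma markers had a row, from FN1 with 1277 counts, above 100% of the 200 listed protein-coding genes nearest to it in interval length (its neighbours in length), to the bone phosphatase gene ALPL with 8, above 2.5%. COL1A2, BGLAP and IBSP had none. All 4 blood markers lacked a row. Of 4 epithelial markers, 3 had a row, each overlapping another listed gene. The keratin genes KRT8 and KRT18 had 206 and 146 counts, above 87% and 95.5% of their neighbours in length, CDH1 had 13, above 9.5%, and EPCAM had no row.

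All 10 members were listed, against 60.6% of 19124 annotated protein-coding genes, so no glypican or syndecan was absent. A count of 10 or more was reached by 9 of the 10 members, against 54.1% of annotated protein-coding genes. Of these, GPC3 had 18 counts, and a pseudogene inside it had 15. If all 15 are also counted for GPC3, 3 are left, below the floor of 6. A count of 100 or more was reached by 4 members, GPC6, GPC5, SDC4 and GPC1, against 26.1% of listed protein-coding genes. Since the members were named with their counts known, nothing is read from these shares. The counts of the members were spread over a 292-fold range. GPC6 alone held 60.5% of them (exact 95% Clopper-Pearson interval 58.8 to 62.1%), and the 6 glypicans together held 89.4% (88.3 to 90.4%). The glypican intervals were also long, with 3254.8 kb in all against 175.1 kb for the syndecans. Per kb of interval the order of the families turned round: the glypicans pooled had 0.928 counts per kb and the syndecans 2.04. Counts per kb fall with interval length in this table, so that order is not corrected for length.

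**Figure D1:**
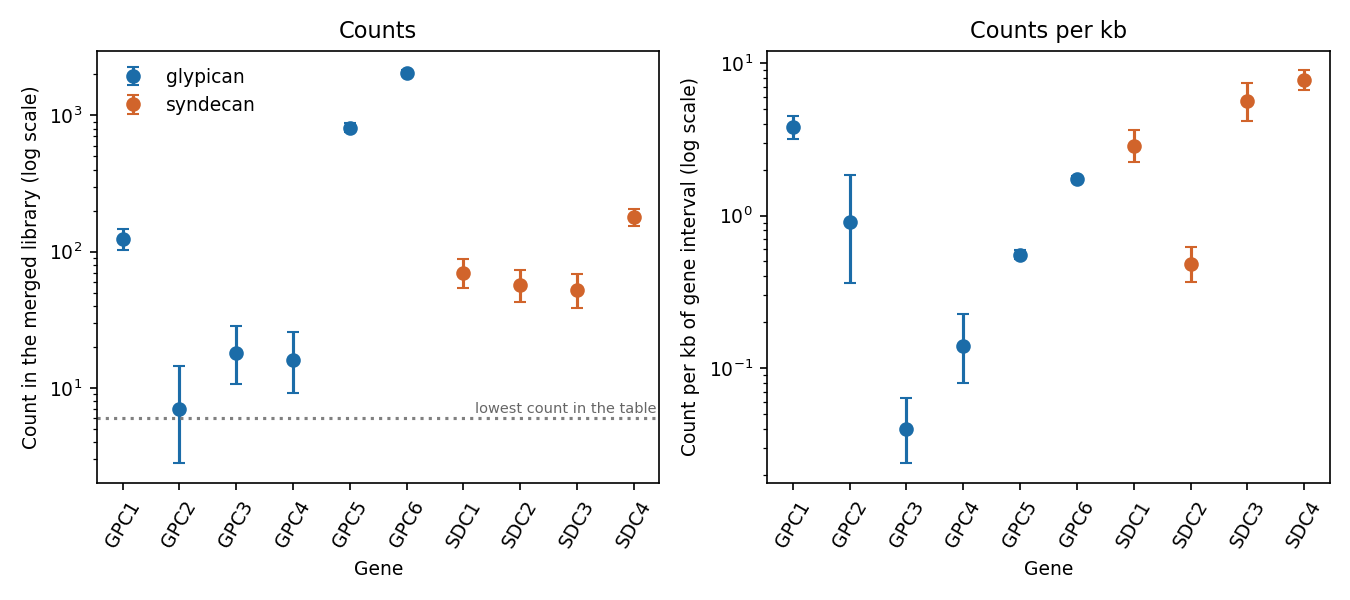
Counts (left) and counts per kb of gene interval (right) of the 10 genes in the merged CTCF PAR-CLIP library, on log axes, with exact 95% Poisson intervals that cover counting error only. GPC6 (2044) and GPC5 (814) led by count, whereas SDC4 (7.74) and SDC3 (5.61) led per kb, and GPC3 was lowest per kb (0.0400).

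The RefSeq promoter windows of 4 members are shown first, since they belong to the genes that led by count, GPC6 and GPC5, and to the gene that led each family per kb, GPC1 and SDC4. Each window runs from 250 bases before to 50 bases after an annotated gene start (RefSeq, build GRCh38.p14). Capitals mark CCCTC, the letters after which CTCF was named, and its reverse complement GAGGG. The windows are chr13:93226557-93226856 on the plus strand for GPC6, chr13:91398371-91398670 on the plus strand for GPC5, chr2:240435413-240435712 on the plus strand for GPC1 and chr20:45348375-45348674 on the minus strand for SDC4.
GPC6: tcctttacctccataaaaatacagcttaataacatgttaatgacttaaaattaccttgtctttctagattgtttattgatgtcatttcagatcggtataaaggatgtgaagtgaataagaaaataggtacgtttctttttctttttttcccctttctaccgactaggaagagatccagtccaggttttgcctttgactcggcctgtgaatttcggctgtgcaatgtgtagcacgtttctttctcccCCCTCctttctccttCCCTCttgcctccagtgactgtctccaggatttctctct
GPC5: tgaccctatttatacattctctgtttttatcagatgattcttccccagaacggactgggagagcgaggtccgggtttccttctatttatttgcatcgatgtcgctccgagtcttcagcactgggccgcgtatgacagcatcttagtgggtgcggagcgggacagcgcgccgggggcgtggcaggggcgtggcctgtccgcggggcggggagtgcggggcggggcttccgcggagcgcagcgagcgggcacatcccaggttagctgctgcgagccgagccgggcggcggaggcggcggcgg
GPC1: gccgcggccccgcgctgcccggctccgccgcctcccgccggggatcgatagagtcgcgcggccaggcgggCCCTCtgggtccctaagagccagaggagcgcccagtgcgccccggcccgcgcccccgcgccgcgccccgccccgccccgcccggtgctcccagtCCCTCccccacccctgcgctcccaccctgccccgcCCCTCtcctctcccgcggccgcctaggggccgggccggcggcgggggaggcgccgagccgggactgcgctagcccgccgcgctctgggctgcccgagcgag
SDC4: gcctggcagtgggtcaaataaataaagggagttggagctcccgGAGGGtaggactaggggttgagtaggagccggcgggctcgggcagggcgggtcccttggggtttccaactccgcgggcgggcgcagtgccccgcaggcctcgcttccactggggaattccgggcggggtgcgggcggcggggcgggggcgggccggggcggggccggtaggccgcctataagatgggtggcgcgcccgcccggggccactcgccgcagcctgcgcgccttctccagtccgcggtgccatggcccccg

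The GPC6 window stood apart from the others in base composition. Its GC content was 40%, below the median of 58.7% over 35114 RefSeq windows, and it held 6 CG dinucleotides. The GPC5 window had a GC content of 65% with 33 CG dinucleotides. The GPC1 window had a GC content of 83.3% with 45 CG dinucleotides, and the SDC4 window had 74% with 33. Windows were used for 8 of the 10 members, 9 windows in all because SDC1 had 2. GPC3 had none in this set. Member windows on chromosome 8, which holds SDC2, were left out, so whether SDC2 has one is not shown. The 35114 windows were not filtered by chromosome. CCCTC or GAGGG occurred in 8 of the 9 windows and in 71.2% of all windows of this length. The exception was GPC5, with 0. These letters are a description of the windows, and no binding at them was measured here.

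GPC5 and GPC6 lie next to each other on chromosome 13 and are the longest members. GPC6, a glypican known from a recessive short-limb dysplasia, had 2044 counts (95% Poisson interval 1956 to 2135) over 1180.6 kb (13, 93879095 to 95059655, hg19). That was the 9th highest count of the whole table and the 8th among protein-coding genes. GPC5, a glypican best described in the nervous system and in tumours of mesenchymal origin, had 814 counts (759 to 872) over 1468.6 kb (13, 92050929 to 93519490). Per kb GPC6 had 1.73 counts and GPC5 0.554, a ratio of 3.12 (exact 95% interval from the counts 2.88 to 3.39). The gene with the shorter interval of this pair thus had the higher value on both scales.

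Longer intervals hold more counts in this table, so each member was also set against the 200 listed protein-coding genes nearest to it in interval length. For GPC6, 98.5% of these had fewer counts (exact 95% Clopper-Pearson interval 95.7 to 99.7%), and their median was 114. For GPC5 the share was 91% (86.1 to 94.6%), with the same median. Such intervals of a share of neighbours treat the 200 neighbours as a sample and leave out the counting error of the member itself. Few genes are as long as these, and the 200 neighbours ran from 493.6 to 2304.6 kb. Among the 38 listed protein-coding genes of 1000 kb or more, GPC6 ranked 1st both by count and by count per kb, and GPC5 ranked 7th by both. The median of these 38 genes was 119.5 counts, or 0.0879 counts per kb.

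Small listed genes lie inside both chromosome 13 members, and reads there enter both counts, since the table behaves as if whole intervals had been counted without regard to strand. Of 2435 cases of a listed interval wholly inside another, 0 had a higher count for the smaller interval. The antisense genes GPC6-AS1 (52 counts) and GPC6-AS2 (16) held 3.33% of the GPC6 count. The rest of GPC6 had 1.75 counts per kb, against 1.54 in GPC6-AS1 and 0.903 in GPC6-AS2. Within GPC5, the sense-intronic gene GPC5-IT1 had 27 counts and the antisense genes GPC5-AS2 and GPC5-AS1 had 14 and 12, together 6.51% of the GPC5 count. GPC5 had 0.535 counts per kb outside its inner genes, against 1.06 in GPC5-IT1, 0.646 in GPC5-AS1 and 17.3 in the 0.81 kb of GPC5-AS2. An interval as short as GPC5-AS2 lies above GPC5 per kb even at the floor of 6 counts. The genes on either side of the pair are short, and per kb they were above the glypican beside them. GPC5 had 0.554 counts per kb, against 1.53 for MIR17HG, the host of the miR-17 to miR-92 cluster, with 7 counts 46.3 kb away. At the floor of 6 counts, the 4.58 kb of MIR17HG would already lie above GPC5 per kb, so this order was fixed in advance. GPC6 had 1.73 counts per kb, against 2.07 for TGDS, for a sugar dehydratase, with 46 counts 166.7 kb away.

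GPC4 and GPC3 form the other tandem pair, on the X chromosome, and were the lowest members per kb. GPC3, whose loss causes an overgrowth syndrome and which is a marker of liver cancer, had 18 counts (10.7 to 28.4) over 450.2 kb (X, 132669773 to 133119922), or 0.0400 counts per kb. GPC4, which modulates Wnt and FGF signalling, had 16 counts (9.15 to 26.0) over 115.4 kb (X, 132434131 to 132549518), or 0.139 per kb. Both counts were lower than those of most genes of similar length: 12.5% of the 200 neighbours had fewer counts in each case. The neighbours' medians were 109.5 for GPC3 and 96 for GPC4. Against neighbours that overlap no other listed gene, the share was 22.5% for GPC3 and 16.5% for GPC4.

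Most of the GPC3 count may lie in a single small interval. RPS24P19, a pseudogene of the ribosomal protein gene RPS24, lies inside GPC3 (X, 132804999 to 132805414), spans 0.416 kb, or 0.0924% of its length, and had 15 counts (8.40 to 24.7). If every count of RPS24P19 is also among those of GPC3, 83.3% of the GPC3 count came from this interval and 3 counts (0.619 to 8.77) were left for the other 449.7 kb. A remainder of 3 is below the floor of 6, at which the table starts. On that remainder, the ratio of GPC4 to GPC3 per kb was 20.8 (5.95 to 111), against 3.47 (1.65 to 7.20) on the full counts. Which reads of RPS24P19 could also align to RPS24 mRNA or to other copies of it is not given in the sources used here.

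**Figure D2:**
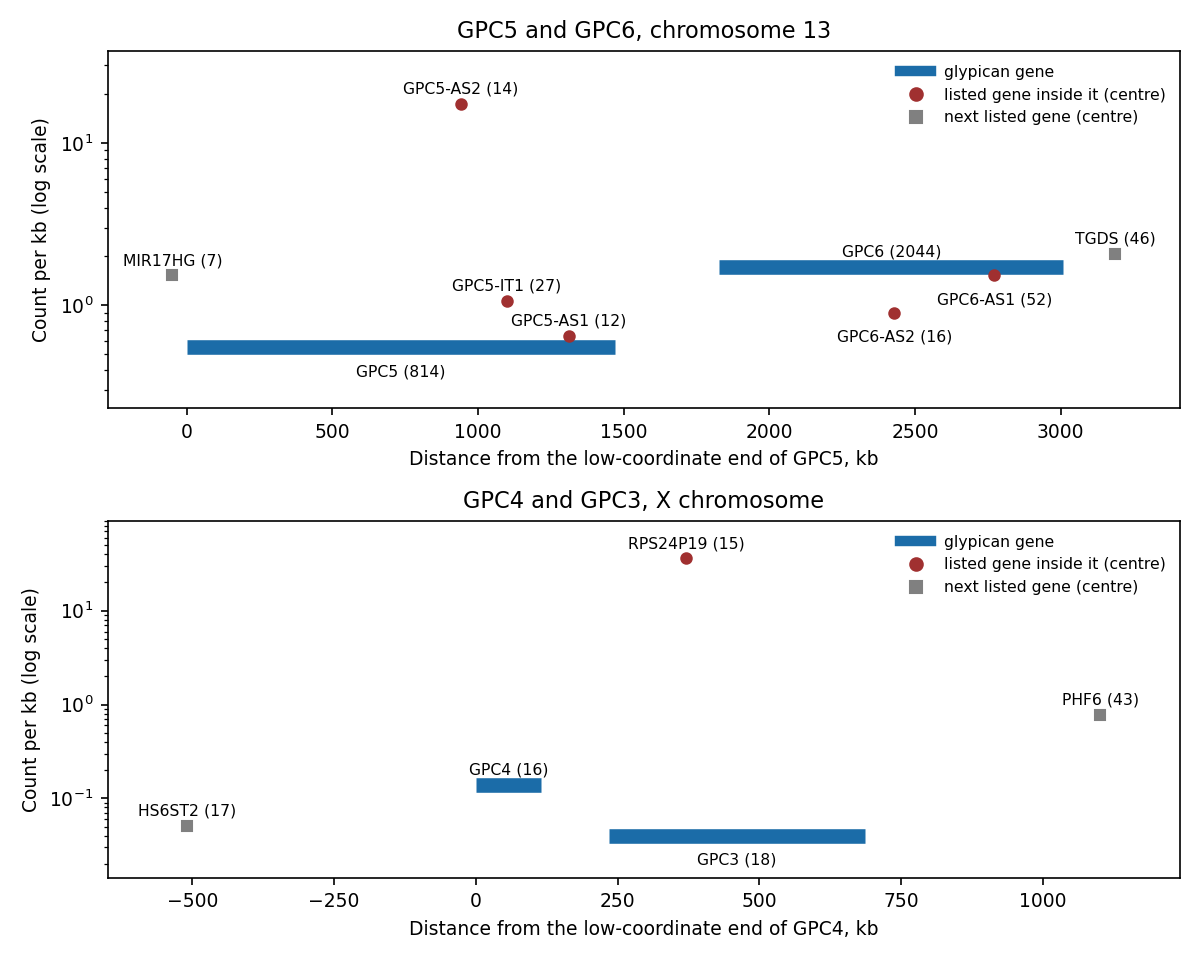
Counts per kb (log axis) of the tandem glypican genes, by distance along the chromosome from the low-coordinate end of GPC5 (top) or GPC4 (bottom). Bars span the glypican intervals, circles mark the centres of listed genes inside them and squares the centres of the next listed genes, with counts in brackets. RPS24P19 (15 counts, against 18 for GPC3) lies far above the GPC3 bar, as a listed interval of its length must at the floor of 6 counts.

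The next listed gene beside GPC4 is also a heparan sulfate gene. HS6ST2, which adds sulfate to the 6-O position of the chain, had 17 counts (9.90 to 27.2) over 331.3 kb, or 0.0513 per kb. It lies 342.8 kb from GPC4, and 13.5% of its neighbours in length had fewer counts. The 3 genes HS6ST2, GPC4 and GPC3, in a row along the chromosome apart from RPS24P19, thus had between 0.0400 and 0.139 counts per kb. If the value of GPC3 includes all counts of RPS24P19, taking those off would leave GPC3 with 0.00667 per kb, from 3 counts. On the other side of GPC3, PHF6, a chromatin-associated zinc-finger gene, had 43 counts and 0.774 counts per kb.

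The last glypicans, GPC1 and GPC2, have short intervals and no other glypican gene beside them. GPC1, a broadly expressed glypican that acts with FGF2, had 123 counts (102 to 147) over 32.4 kb (2, 241375088 to 241407493). Its 3.80 counts per kb were the highest among glypicans, and 80% of its neighbours in length had fewer counts (73.8 to 85.3%), with a median of 57. GPC2, known from developing neurons and neuroblastoma, had 7 counts (2.81 to 14.4) over 7.76 kb (7, 99767229 to 99774990). It was the lowest member by count and sat 1 count above the floor, and 9.5% of its neighbours had fewer. STAG3, for a meiotic cohesin subunit, starts 0.196 kb beyond the GPC2 interval and had 53 counts. ANKMY1, 11.3 kb from GPC1, had 11.

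The syndecans were closer to one another than the glypicans. Their counts lay between 52 and 179, a 3.44-fold range, and their counts per kb over a 16.1-fold range, against 94.9-fold for the glypicans. SDC4, the broadly expressed syndecan of focal adhesions, had 179 counts (154 to 207) over 23.1 kb (20, 43953928 to 43977064). At 7.74 counts per kb it was the highest of all members, and 94% of its neighbours in length had fewer counts (89.8 to 96.9%). Their median was 39.5.

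SDC1, the syndecan of epithelia and plasma cells, had 70 counts (54.6 to 88.4) over 24.3 kb (2, 20400558 to 20424873), or 2.88 per kb. The intervals of SDC1 and SDC4 are nearly the same length, so their counts compare directly. SDC3, the neural syndecan, had 52 counts (38.8 to 68.2) over 9.27 kb (1, 31342314 to 31351587), or 5.61 per kb. The listed SDC3 interval is shorter than the gene annotated in RefSeq, so its values cover that interval only. SDC2, the syndecan of mesenchymal cells, had 57 counts (43.2 to 73.9) over 118.4 kb (8, 97505579 to 97624000), or 0.481 per kb. It was the only syndecan with more than 50% of its neighbours above it or level with it: 39% had fewer counts (32.2 to 46.1%), against 65.5% for SDC1 and 78.5% for SDC3. No other listed gene overlapped a syndecan interval, so none of their counts is shared within the table.

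In order of counts per kb the members ran SDC4, SDC3, GPC1, SDC1, GPC6, GPC2, GPC5, SDC2, GPC4 and GPC3. The first and the last differed by a ratio of 193 (119 to 334). Of the 9 pairs next to each other in this order, 5 had a ratio whose interval excluded 1. The other 4 were not resolved at this depth: GPC1 over SDC1 (ratio 1.32, 0.975 to 1.79), GPC6 over GPC2 (1.92, 0.930 to 4.78), GPC2 over GPC5 (1.63, 0.652 to 3.37) and GPC5 over SDC2 (1.15, 0.880 to 1.53). For GPC2 over GPC5 the order was fixed by the floor. At 6 counts the short GPC2 interval would still lie above GPC5 per kb, and the interval of the ratio leaves this out. SDC4 over SDC3 was barely resolved, at 1.38 (1.01 to 1.92).

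**Figure D3:**
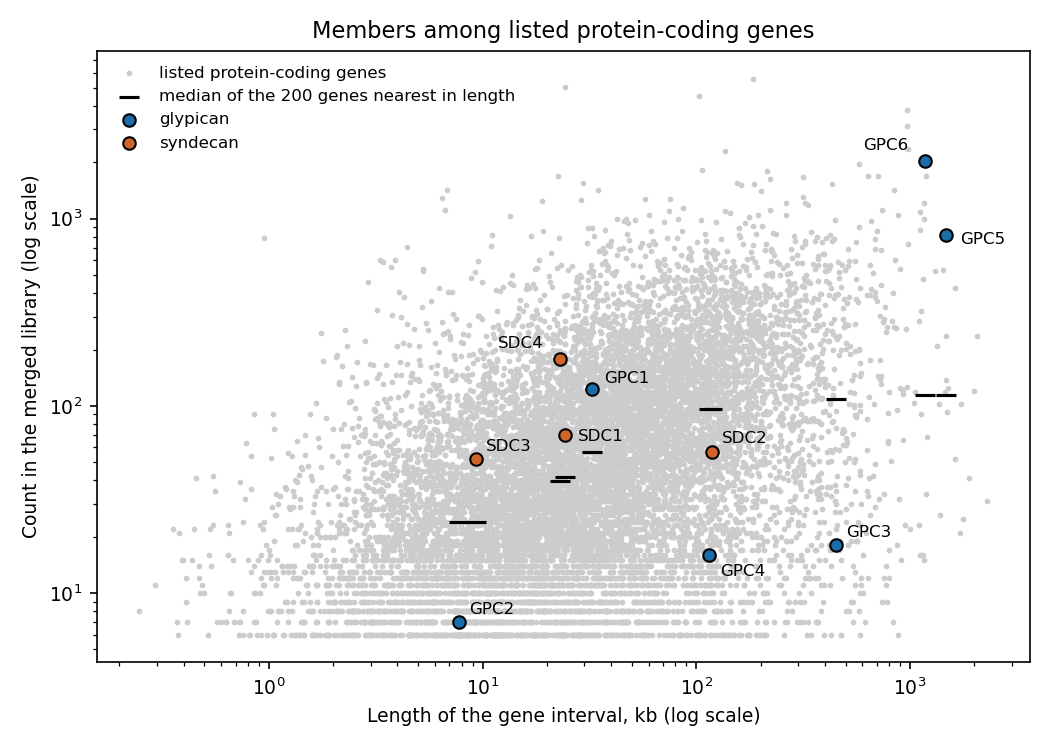
Count against interval length, both on log axes, for the 12220 listed protein-coding genes (grey), the glypicans (blue) and the syndecans (orange), with the median of the 200 listed protein-coding genes nearest in length to each member (black dashes). GPC6, GPC5, GPC1, SDC4, SDC3 and SDC1 lie above their dashes, and GPC2, GPC3, GPC4 and SDC2 lie below.

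Against genes of like length the glypicans fell at the ends of the range. For 3 of them (GPC6, GPC5, GPC1) more than 75% of neighbours had fewer counts, and for the other 3 (GPC2, GPC3, GPC4) under 25% did. At least 50% of neighbours had fewer counts for 6 of the 10 members, against 49.9% of listed protein-coding genes. Taking at least 75% as the upper 25%, 5 of 10 members were in it, against 25.1% of listed protein-coding genes, and 3 of 10 were in the lower 25% (under 25% of neighbours with fewer counts), against 25.9%. Of the syndecans, 2 of 4 (SDC4 and SDC3) were in the upper 25% and 0 in the lower. The median share was 46.3% for the glypicans and 72% for the syndecans. Other listed genes overlapped 3 of the 10 members, against 34.7% of listed protein-coding genes.

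The listed protein-coding genes most like GPC6 in count and length, by distance on the log10 scales of both in this 1 library, were AUTS2 (1696 counts, 1193.6 kb), TENM2 (2356 counts, 978.2 kb) and SDK1 (3124 counts, 967.6 kb). AUTS2 is a neurodevelopmental regulator, and TENM2 and SDK1 encode neuronal adhesion proteins. For SDC4 they were PPP1CC, a phosphatase catalytic subunit (182 counts, 23.2 kb), PSMG2, a proteasome assembly factor (171 counts, 23.3 kb), and DDB2, a DNA damage sensor (182 counts, 24.3 kb).

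The genes that build, trim and read heparan sulfate were described through 9 lists with 103 genes in all, none of them a member. A row was found for 81 (78.6%), against 60.6% of annotated protein-coding genes. The median count was 63.5 for the members, against 46 for these 81 and 43 for all listed protein-coding genes. Of the 81, 20 (24.7%) were in the upper 25% for their length and 24 in the lower. The background shares are 25.1% and 25.9% of listed protein-coding genes, also for each list below. The upper share of the 81 genes is near its background. The intervals of 22 of the 81 overlap another listed gene, against 34.7% of listed protein-coding genes, so their counts may be shared. HSPG2, PXYLP1, EXTL3, IDS and NAGLU, named below, are among them.

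Other proteoglycan core genes were mostly low for their length. Of 12, 11 had a row, with a median count of 17. Of the 11, 6 were in the lower 25%, against 25.9% of listed protein-coding genes, and 3 in the upper 25%, against 25.1%. CD44, a hyaluronan receptor that can carry heparan sulfate, had 632 counts and 6.76 per kb. NRP1, a neuropilin, had 278 and AGRN, for agrin, 156 (4.33 per kb), and these 3 intervals overlap other listed genes. HSPG2, for perlecan, had 17 counts over the 8.47 kb listed for it. SPOCK2, a testican, was lowest at 6, and SRGN, for serglycin, had no row.

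Chain synthesis starts with a linkage sugar bridge, and 6 of 7 enzyme genes for it had a row. XYLT1 and XYLT2, the xylosyltransferases, had 59 and 48 counts, and the phosphatase gene PXYLP1 had 48. Per kb XYLT2 led with 3.19, before the kinase gene FAM20B with 1.88 and B3GAT3 with 1.31. B4GALT7 was lowest at 7, B3GALT6 had no row, and 0 of the 6 were in the upper 25%. The chain polymerases were led by EXT1, mutated in hereditary multiple exostoses. EXT1 had 1666 counts (5.25 per kb) over 317.4 kb, and all of its 200 neighbours (100%) had fewer. Its partner EXT2 had 197 counts (1.32 per kb), EXTL3 88 and EXTL2 31 (1.38 per kb), and EXTL1 had no row.

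Sulfation enzymes were listed for 10 of 16 genes, with a median count of 50. HS3ST5, a 3-O-sulfotransferase gene, had 335 counts (1.17 per kb), HS2ST1 183 and NDST2 102 (6.74 per kb), and all 3 overlap another listed gene. NDST1, the main N-sulfation enzyme of many tissues, had 87 counts (2.44 per kb) with no overlap. The epimerase gene GLCE and HS6ST3 were lowest at 9. NDST3, NDST4, HS3ST1, HS3ST2, HS3ST3B1 and HS3ST6 had no row.

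Degradation genes were low, with a median count of 11 over the 9 listed of 11. IDS, mutated in Hunter syndrome, had 62 counts (2.19 per kb), GUSB had 27, and SGSH had 3.54 per kb. HPSE for heparanase, IDUA and NAGLU were lowest at 9. The extracellular 6-O-endosulfatases SULF1 and SULF2 had no row.

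The list of enzymes described as shedding core proteins had a row for 7 of 9 genes, with a median of 73. ADAM17 had 309 counts (4.59 per kb), ADAM10 201 and MMP14 83 (7.41 per kb), and the ADAM17 interval overlaps another listed gene. FURIN, a convertase that cleaves glypicans, had 72 counts (4.84 per kb), and MMP9 was lowest at 9. NOTUM and GPLD1 had no row. The cytoplasmic partners of syndecans had the highest median count of the 9 lists, 253 over 9 of 10 genes, and 4 of the 9 were in the upper 25%. PRKCA, the kinase that SDC4 binds, had 565 counts, ACTN4, an actinin, 531 (7.15 per kb) and EZR, for ezrin, 393 (7.49 per kb), and PDCD6IP, for ALIX, had 1.95 per kb. The intervals of PRKCA and ACTN4 overlap other listed genes. SDCBP, for syntenin, the PDZ protein that binds all syndecan tails, was lowest at 8 (3.45 to 15.8), and SDCBP2 had no row.

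Receptors that use heparan sulfate had a row for 12 of 15 genes and a median of 93, with 5 of the 12 in the upper 25%. ROBO1, the Slit receptor, had 1209 counts, LRP6, a Wnt co-receptor, 448 (2.97 per kb) and PTPRS 240. MET had 4.59 counts per kb, and FZD7 was lowest by count at 9 (2.34 per kb). FGFR3, FGFRL1 and KDR had no row. Ligands had a row for 13 of 18 genes and a median of 32, with 1 of the 13 in the upper 25%. SLIT2 had 183 counts, PDGFA 77 and FGF1 56. Per kb MDK (4.93), VEGFA (4.20) and BMP4 (3.82) led, and BMP2 was lowest at 8. HGF, WNT3A, SHH, IHH and CXCL12 had no row.

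**Figure D4:**
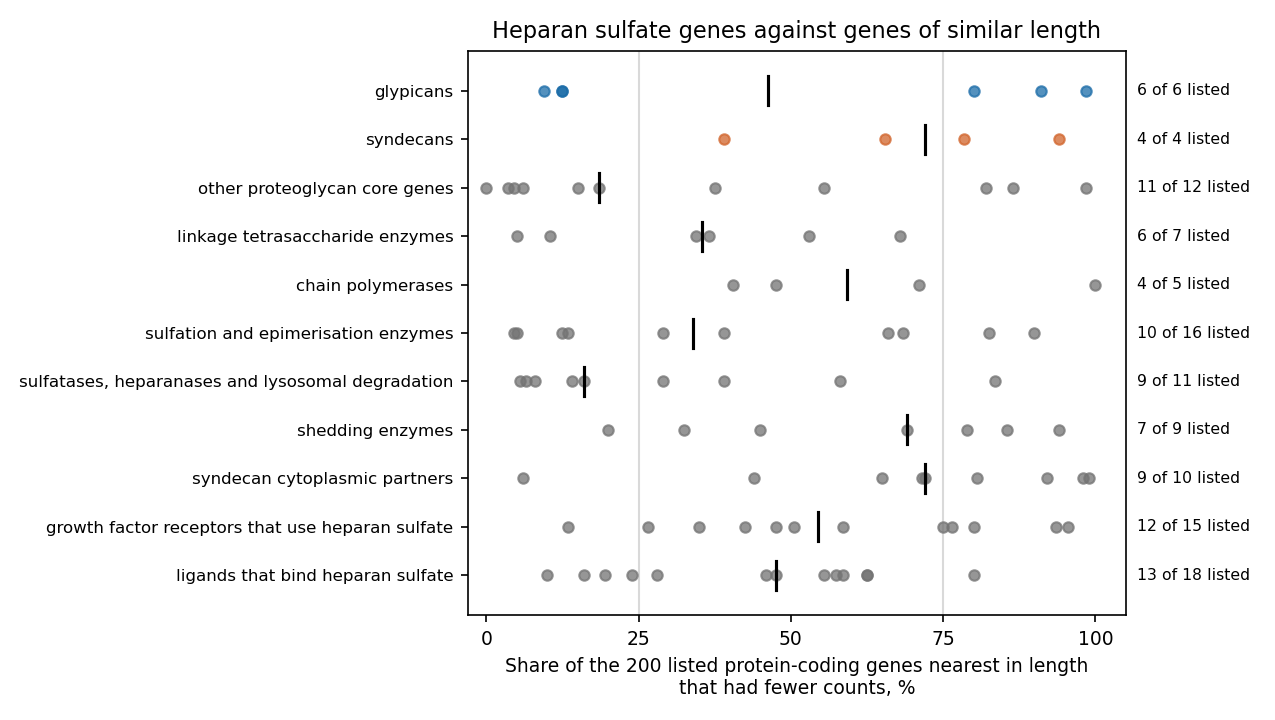
Share of the 200 listed protein-coding genes nearest in length that had fewer counts, for each listed glypican, syndecan and gene of the 9 heparan sulfate lists, with the list's median as a black bar and the number listed at the right. Glypicans lie below 25% or above 75%, and EXT1 lies at 100%.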

How the data were processed

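The deposited table holds whole-number counts per Ensembl gene for the merge of both replicates, per the labels. Build hg19, Bowtie and bedtools are named in the submitters' processing notes. How multiply mapped or duplicate reads and strand were handled, and which tool versions ran, is not given in the sources used here. Identifiers were matched to symbols for 16520 of 17201 genes, so a gene without a row may also carry an unmatched identifier or not have been counted. Counts were used unscaled and divided by interval length, and were ranked by the share of the 200 listed protein-coding genes nearest in log length that had fewer counts, with members themselves allowed as neighbours. Exact 95% Poisson intervals, and Clopper-Pearson intervals of shares of counts, cover counting error only. PCR copies are not independent molecules, and variation between cultures is not covered. Clopper-Pearson intervals of a share of neighbours treat the 200 neighbours as a sample. They do not include the counting error of the ranked gene. Intervals of ratios condition on the summed count of both genes. The ranking was tested on simulated data. The genes named are the members, listed genes inside or beside them, in each list the highest by count and per kb, the lowest and those without a row, and the genes most like the leading member of each family. The members and lists were chosen with earlier results of these data known. Python 3.11.15, pandas 2.3.3, NumPy 2.4.6 and SciPy 1.17.1 were used. The 2 replicates were not analysed separately here. Some genes that the rule for named genes covers are not reported here.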

Additional observations from a re-analysis of the deposited data

How the results depend on the processing

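The share of the member counts held by GPC6 was 60.5% and moved to 7.25% per kb of interval. That of the glypicans was 89.4% and moved to 30.0% per kb and to 29.0% over members that overlap no other listed gene, since this leaves out GPC3, GPC5 and GPC6. Taking off genes inside the intervals, an alternative chosen after seeing the data, left both shares within their counting intervals. It moved the rank of GPC3 from 12.5% to 0% of neighbours with fewer counts, because 3 counts are below the floor. Against neighbours that overlap no other listed gene, the share was 22.5% for GPC3, 98% for GPC5 and 100% for GPC6. For GPC5 it was 86% with the nearest 100 genes and 94.8% with the nearest 500. A share or rank was taken as moved where it left the exact 95% interval of its first value, and a number of genes where it changed by more than 1.5 times. For a rank this interval leaves out the counting error of the gene itself. By this, 42 recomputed values stayed and 9, all given above, moved. A count of 10 or more was held by 9 of 10 members and 68 of 81 pathway genes. Counts per kb of coding length were not run, because no protein sequences were used here, and GPC6 has no share among non-overlapping members. No paired analysis was possible because counts of the single replicates were not analysed here, and for the same reason no replicate was left out. Depth limits GPC2, GPC3 and GPC4, whose counts were 7, 18 and 16.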

Other observations

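These observations were picked after their values were seen. PUM2, for an RNA-binding repressor of translation, is the next listed gene on one side of SDC1. SDC1 had 2.88 counts per kb, against 6.01 for PUM2, which lies 23.6 kb away and had 473 counts (431 to 518) over 78.7 kb. For PUM2, 98% of its neighbours in length had fewer counts. Beside SDC2, PTDSS1, for a phosphatidylserine synthase, had 200 counts and CPQ, for a peptidase, had 50.

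RPS24, the parent gene of the RPS24P19 copy inside GPC3, had 89 counts over 6.83 kb. Besides RPS24P19 with 15 counts in 0.416 kb, the copies RPS24P12 and RPS24P7 had 7 and 6 counts in 0.394 and 0.246 kb. SDC4P, a pseudogene copy of SDC4, had no row. The microRNA genes that RefSeq places inside members, MIR149 in GPC1 and MIR548AS in GPC5, had no row either.

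GPC6 had 1.73 and GPC5 0.554 counts per kb, against 0.0121 for the sulfotransferase gene HS6ST3, also a long gene of chromosome 13, with 9 counts over 742.6 kb. HPSE2, a heparanase-like gene of 776.7 kb, had 11 counts, or 0.0142 per kb.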
